A study of Mus musculus with 8 samples.

Results

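Transcripts of 6 genes were followed across 4 kinds of mouse embryonic stem cells: Nt5e, Hal, Lrrn2, Ptgs1, Slc15a1 and Klk13. They were found among 47729 genes by their Ensembl identifiers, through the symbols in the authors' tables, and were selected on their measured levels, which were much higher in QKO or QT7L1 cells than in WT cells. Those differences chose the genes, so they are described here and not tested. RNA sequencing covered 8 libraries, 2 from each group. In QT7 cells a single copy of TCF7 had been put back into cells without full-length TCF/LEF factors, and in QT7L1 cells a single copy of TCF7L1. QKO cells lacked every full-length TCF/LEF factor, with the genotype TCF7(-/-), TCF7L1(-/-), TCF7L2(-/-), LEF1(-/-). WT cells were unmodified E14TG2a cells, a line of the 129/Ola strain from which the other 3 lines also came. All were kept for 48 h in medium with 15% serum and LIF. The QT7, QT7L1 and QKO libraries are clones A and B of each line, while the WT libraries are called biological replicates with no clone named. The sources used here do not say how the factors were put back or which promoter makes them.

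The genotype tags contradict the titles, since they give QT7 as TCF7(-/-), TCF7L1(+/-) and QT7L1 as TCF7(+/-), TCF7L1(-/-). The names used here follow the titles. The counts do not settle which is right: Tcf7 was at 16.6 and 20.9 CPM, the count scaled to a common library total and composition, in QT7, 10.1 and 12.7 CPM in QT7L1, 7.97 and 19.7 CPM in QKO and 59.6 and 61.9 CPM in WT, and Tcf7l1 was at 27.4 and 22.4 CPM in QT7, 36.9 and 27.5 CPM in QT7L1, 38.3 and 39.1 CPM in QKO and 73.6 and 68.8 CPM in WT. Tcf7l2 was at 4.72 to 7.40 CPM over the 6 QT7, QT7L1 and QKO libraries and at 8.14 and 6.53 CPM in WT, and Lef1 at 0.212 to 1.33 CPM over those 6 libraries and at 6.57 and 2.4 CPM in WT. Libraries held 31573536 to 43362627 counts. The 8 markers of embryonic stem cells were counted in every library, with summed levels of 5874 to 6971 CPM. Summed over other lists, the 12 endoderm markers reached 47.1 to 121 CPM, the 12 trophoblast markers 69.1 to 147 CPM and the 8 neural markers 95.8 to 214 CPM. In RNA from bulk cells, fewer cells of a type and less RNA per cell cannot be told apart. Replicates differed by more than counting noise, with chi-square values per degree of freedom of 56.0 in QT7, 20.9 in QT7L1, 17.8 in QKO and 21.8 in WT.

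TCF/LEF factors are the DNA-binding proteins through which beta-catenin, the messenger of Wnt signalling, acts on genes. Without beta-catenin they recruit TLE corepressors and hold their targets down. In embryonic stem cells TCF7L1 is known mainly as a repressor of pluripotency genes and TCF7 mainly as an activator. The 6 genes do unlike work. Nt5e is a cell-surface nucleotidase that makes adenosine from extracellular AMP, Hal is histidine ammonia-lyase, which starts the breakdown of histidine, and Lrrn2 is a leucine-rich repeat membrane protein of the neuronal family. Ptgs1 is the constitutive cyclooxygenase that starts prostanoid synthesis, Slc15a1 is a proton-coupled transporter of small peptides known from the intestine, and Klk13 is a secreted serine protease of the kallikrein family.

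The genes lie on 6 chromosomes. On GRCm38, Nt5e is at chr9:88327197-88372092, Hal at chr10:93488768-93519304, Lrrn2 at chr1:132880273-132940005, Ptgs1 at chr2:36230426-36252272 and Klk13 at chr7:43712567-43727534, all on the plus strand, and Slc15a1 is at chr14:121459621-121505252 on the minus strand. Upstream stretches of 250 bases were taken from RefSeq (GRCm38.p6), which held all 6 genes, and searched on both strands for 4 motifs. These were the TCF/LEF core ATCAAAG, the related letters AACAAAG, which share CAAAG with it, the TATA box TATAAA and the GC box GGGCGG. Only Hal, of the 6 genes, held the letters ATCAAAG, which were present in 3.21% of 32851 promoters, and it also held a TATA box (12.4% of promoters). Slc15a1 held AACAAAG (5.03% of promoters). Nt5e held 4 matches to the GC box, in overlapping pairs (at least 1 match in 32.7% of promoters), while none of the 4 motifs was present in the windows of Lrrn2, Ptgs1 and Klk13. Windows were placed by the RefSeq start. That of Nt5e (chr9:88327359-88327608) therefore lay within the gene position given above, and that of Lrrn2 (chr1:132880105-132880354) partly so. A match describes the letters and does not show that a factor binds. The windows of Hal and Slc15a1 are shown for their TCF/LEF core and related letters, beside those of Ptgs1 and Klk13, which held no match although Ptgs1 transcripts varied like those of Hal and Klk13 transcripts like those of Slc15a1. Each is written 5′ to 3′ and ends 1 base before the RefSeq start of the gene, and capitals mark the motif matches.
Hal promoter: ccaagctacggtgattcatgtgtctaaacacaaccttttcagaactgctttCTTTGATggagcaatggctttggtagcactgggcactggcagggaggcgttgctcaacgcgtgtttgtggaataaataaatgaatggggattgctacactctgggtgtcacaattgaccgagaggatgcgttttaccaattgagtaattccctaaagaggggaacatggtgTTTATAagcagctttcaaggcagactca
Ptgs1 promoter: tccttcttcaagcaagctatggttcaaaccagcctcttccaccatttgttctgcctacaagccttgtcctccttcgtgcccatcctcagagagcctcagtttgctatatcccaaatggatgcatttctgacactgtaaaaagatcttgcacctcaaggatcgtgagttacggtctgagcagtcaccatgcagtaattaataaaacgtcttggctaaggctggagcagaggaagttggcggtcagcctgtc
Slc15a1 promoter: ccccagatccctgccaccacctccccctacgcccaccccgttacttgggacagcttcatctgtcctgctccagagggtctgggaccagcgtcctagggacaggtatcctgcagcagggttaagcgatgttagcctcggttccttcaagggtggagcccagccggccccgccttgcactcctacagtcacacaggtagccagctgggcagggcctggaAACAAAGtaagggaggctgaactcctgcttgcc
Klk13 promoter: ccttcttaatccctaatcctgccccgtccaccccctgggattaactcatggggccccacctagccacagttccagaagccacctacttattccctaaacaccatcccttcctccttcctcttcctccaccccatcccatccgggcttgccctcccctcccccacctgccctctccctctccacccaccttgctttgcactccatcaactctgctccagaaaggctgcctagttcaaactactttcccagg
The windows are chr10:93488518-93488767 (plus strand) for Hal, chr2:36230176-36230425 (plus strand) for Ptgs1, chr14:121505255-121505504 (minus strand) for Slc15a1 and chr7:43712317-43712566 (plus strand) for Klk13. The match in Hal begins 199 bases before the start of the gene and that in Slc15a1 33 bases before it. The share of G and C was 45.6% in Hal, 48.0% in Ptgs1, 62.0% in Slc15a1 and 57.6% in Klk13, against a median of 52.4% over all promoters.

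Levels over the 8 libraries fell into 2 shapes. Nt5e, Hal, Lrrn2 and Ptgs1 were highest on average in QKO and lowest in WT, with the rescued lines between. Slc15a1 and Klk13 were highest in the rescued lines and stood at 13.5 ± 0.478 and 2.66 ± 0.274 CPM in QKO, against 9.48 ± 4.20 and 2.50 ± 0.346 CPM in WT (SD, n = 2 each). The name under which the genes were grouped, genes raised without TCF/LEF, therefore describes the first 4 better than the other two. Both QKO libraries of Slc15a1 lay above both WT libraries, by 0.50 on the log2 scale, a value of 0.12 without WT replicate 1 and 1.06 without WT replicate 2. For Klk13 the QKO and WT libraries overlapped.

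**Figure D1:**
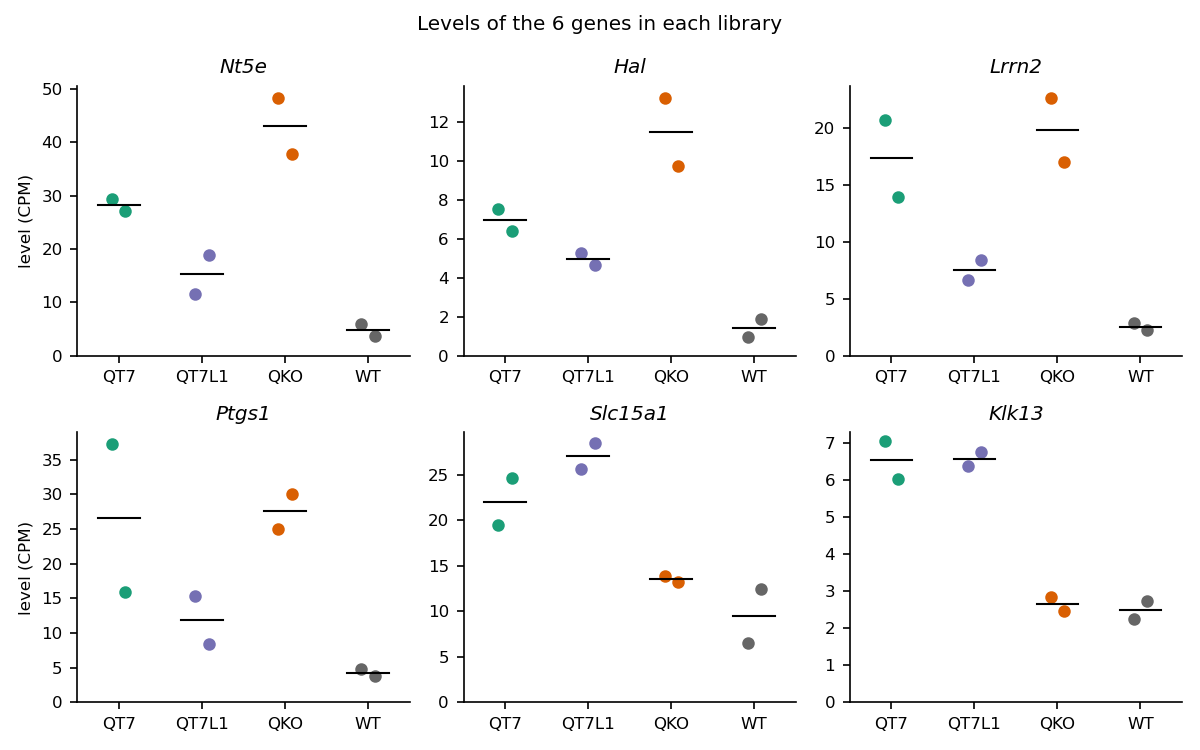
Level of each gene in CPM (vertical axes, from 0) in the 2 libraries of QT7, QT7L1, QKO and WT, with the mean as a line. Nt5e, Hal, Lrrn2 and Ptgs1 were lowest in both WT libraries, and Klk13 separated QT7 and QT7L1 (6.03 to 7.04 CPM) from QKO and WT (2.25 to 2.85 CPM).

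Nt5e was at 29.3 and 27.1 CPM in QT7, 11.6 and 18.9 CPM in QT7L1, 48.3 and 37.8 CPM in QKO and 5.98 and 3.76 CPM in WT. No group overlapped its neighbour in the order QKO, QT7, QT7L1, WT. Hal was at 7.53 and 6.44 CPM in QT7, 5.27 and 4.66 CPM in QT7L1, 13.2 and 9.73 CPM in QKO and 0.970 and 1.90 CPM in WT. Its groups took the same order, again with no overlap between neighbours. Nt5e is also made by fibroblasts, which can reach such cultures as feeders. The summed level of the 15 fibroblast markers was 85.5 and 114 CPM in QT7, 65.4 and 82.2 CPM in QT7L1, 155 and 63.3 CPM in QKO and 131 and 96.6 CPM in WT. Lum and Fap were at 0 in every library, while Col1a1 ranged from 2.58 to 51.0 CPM and Col5a1 from 18.8 to 35.3 CPM. Thy1, a surface protein on the list and named after its values were seen, was at 17.4 and 19.2 CPM in QT7, 18.0 and 14.4 CPM in QT7L1, 20.4 and 19.2 CPM in QKO and 7.98 and 11.5 CPM in WT. Like Nt5e it was lowest in both WT libraries. Of the 11 markers tested, Thy1 alone rose in QT7 against WT (0.90 ± 0.20, log2, SE, edgeR adjusted p = 0.0337) and in QKO against WT (1.02 ± 0.20, 0.00566), with 10 not passing in each. The QT7 call ended without WT replicate 1 (0.226) or any 1 library of QKO or QT7L1 (0.0549 to 0.0595), and with the 2 groups alone (0.118). The median log2 fold change of the 11 tested fibroblast markers was -0.92 in QT7 against WT and -0.31 in QKO against WT. Over all genes tested the medians were 0.01 and -0.01. The part of fibroblasts in the level of Nt5e was not tested.

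The 2-cell-like state is a rare state of embryonic stem cells. Its 9 markers summed to 232 and 226 CPM in QT7, 190 and 198 CPM in QT7L1, 282 and 274 CPM in QKO and 216 and 196 CPM in WT, of which Eif1a alone gave 186 to 259 CPM. Without Eif1a, left out after its values were seen, the other 8 summed to 24.7 and 36.8 CPM in QT7, 3.15 and 2.68 CPM in QT7L1, 33.2 and 15.1 CPM in QKO and 2.38 and 9.77 CPM in WT. All QT7 and QKO libraries thus lay above all QT7L1 and WT libraries. Of 8 markers tested, 2 rose and 6 did not pass in QT7 against WT (median log2 fold change 2.24), and 4 rose and 4 did not pass in QKO against WT (median 1.92), while the median was -1.05 in QT7L1 against WT. The counts moved to 0 in QT7 and 2 in QKO without WT replicate 1, and to 1 in each without QKO replicate 1. They were also 1 and 2 without QKO replicate 2 or QT7L1 replicate 1, and 1 in QT7 without QT7 replicate 1 or QT7L1 replicate 2. With no filter on low counts, 7 markers rose in QT7 against WT and 8 in QKO against WT. Of all genes tested in the main fit, 2.37% were called higher in QT7 against WT and 11.7% in QKO against WT. The part of the 2-cell-like state in the levels of the 6 genes was not tested.

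Lrrn2 was at 20.7 and 13.9 CPM in QT7, 6.66 and 8.37 CPM in QT7L1, 22.6 and 17.0 CPM in QKO and 2.88 and 2.24 CPM in WT. Here QT7 and QKO overlapped, and both lay above QT7L1, which lay above WT. Ptgs1 was at 37.3 and 16.0 CPM in QT7, 15.4 and 8.47 CPM in QT7L1, 25.1 and 30.1 CPM in QKO and 4.82 and 3.76 CPM in WT. QT7 libraries lay on either side of the QKO libraries, and QT7 replicate 2 was barely above QT7L1 replicate 1. Of the 6 genes Ptgs1 varied most between the replicates of QT7, with a ratio of 2.33 between them.

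Slc15a1 was at 19.5 and 24.7 CPM in QT7, 25.7 and 28.6 CPM in QT7L1, 13.9 and 13.2 CPM in QKO and 6.51 and 12.4 CPM in WT. The order was QT7L1, QT7, QKO, WT with no overlap, although WT replicate 2 came close to the QKO libraries. Klk13 was at 7.04 and 6.03 CPM in QT7, 6.39 and 6.76 CPM in QT7L1, 2.85 and 2.47 CPM in QKO and 2.25 and 2.74 CPM in WT. The rescued lines overlapped each other, as did QKO and WT. Klk13 lies inside the opposite-strand gene 2310002F09Rik, and the strand setting of the counting is not given. That gene was at 0.255 and 0.322 CPM in QT7, 0.848 and 0.944 CPM in QT7L1, 0.124 and 0.139 CPM in QKO and 0.501 and 0.998 CPM in WT, below Klk13 in every library, and reads of the pair cannot be told apart if strand was not used. A further overlapping gene, Gm44814, lies on the same strand as Klk13. The highest count of either overlapping gene in any library was 44.

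Levels of different genes compare only per length. In QT7, Ptgs1 averaged 6.85 CPM per kilobase of exon, Lrrn2 4.82, Slc15a1 4.52, Nt5e 3.28, Klk13 2.84 and Hal 1.26. In WT the same genes averaged 1.11 CPM per kilobase for Ptgs1, 0.713 for Lrrn2, 1.94 for Slc15a1, 0.566 for Nt5e, 1.09 for Klk13 and 0.259 for Hal. Slc15a1 was thus first in WT and the third in QT7.

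The rule that chose the genes did not use the QT7 libraries, so QT7 against WT asks whether QT7 cells also differ from WT. The rule did use the WT libraries, and genes whose WT values happened to be low were favoured. Rises in QT7 over WT and their p-values therefore lean upward, and the count of genes called is not an independent test. All 6 genes rose in QT7, against a background of 2.37% of 16515 genes called higher and 4.62% called in either direction (edgeR quasi-likelihood test, adjusted p under 0.05, 2 libraries a group), and 20.2% of genes had an unadjusted p under 0.05. Both QT7 libraries lay above both WT libraries for all 6 genes, as they did for 24.3% of the genes tested. The median log2 fold change of the 6 genes was 2.4, beside 0.01 over all genes tested.

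Lrrn2 averaged 17.3 ± 4.78 CPM in QT7 and 2.56 ± 0.449 CPM in WT (SD, n = 2 each), a log2 fold change of 2.76 ± 0.26 (SE, adjusted p = 0.00163). Nt5e averaged 28.2 ± 1.52 CPM in QT7 and 4.87 ± 1.57 CPM in WT, with 2.55 ± 0.28 on the log2 scale (adjusted p = 0.00376). For Hal the means were 6.98 ± 0.769 CPM in QT7 and 1.44 ± 0.660 CPM in WT (log2 fold change 2.25 ± 0.31, adjusted p = 0.00595). These were 4.77-fold to 6.78-fold differences. Ptgs1 averaged 26.6 ± 15.0 CPM in QT7 and 4.29 ± 0.747 CPM in WT, 2.64 ± 0.45 on the log2 scale (adjusted p = 0.0272). Klk13 averaged 6.53 ± 0.719 CPM in QT7 and 2.50 ± 0.346 CPM in WT (1.38 ± 0.23, adjusted p = 0.0128), and Slc15a1 22.1 ± 3.68 CPM in QT7 and 9.48 ± 4.20 CPM in WT (1.21 ± 0.26, adjusted p = 0.0376). The last 2 genes changed least, by 2.60-fold and 2.32-fold.

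The number of genes called depended on single libraries, while the direction did not. It was 2 of 6 without WT replicate 1, where Hal (adjusted p = 0.0508), Ptgs1 (0.196), Slc15a1 (0.145) and Klk13 (0.132) lost their calls, and 3 of 6 when only the QT7 and WT libraries were fitted, with Ptgs1 at 0.0642, Slc15a1 at 0.132 and Klk13 at 0.0730. Ptgs1 also did not pass without WT replicate 2 (0.145), QKO replicate 1 (0.0556) or QKO replicate 2 (0.0533), and Slc15a1 passed in 1 of the 8 fits that left out a library, that without WT replicate 2. In the authors' deposited table, which runs as WT over QT7, all 6 genes had negative log2 fold changes, from -1.04 (Slc15a1) to -2.33 (Lrrn2), with adjusted p-values of 0.000214 (Ptgs1) or less.

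**Figure D2:**
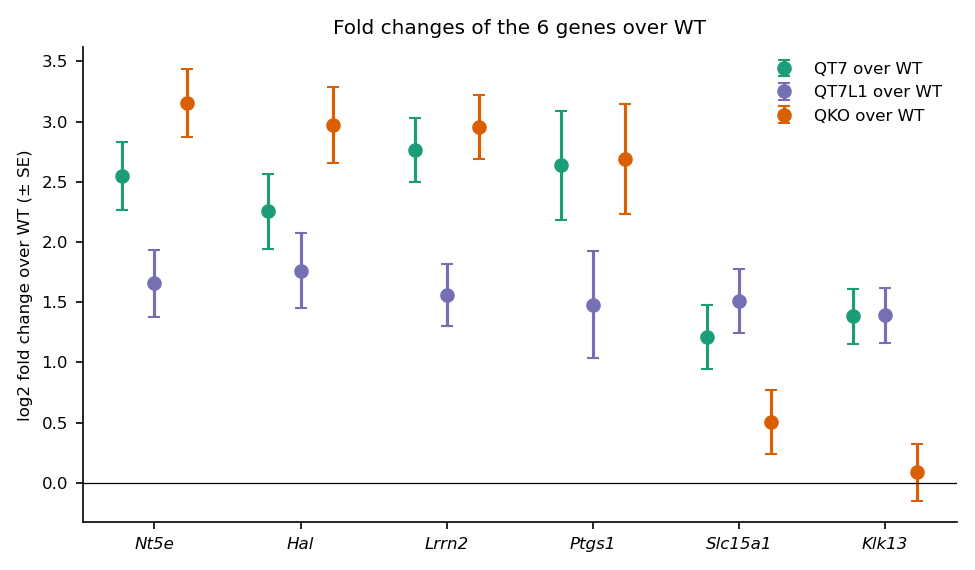
Log2 fold change over WT (vertical axis, with bars of 1 SE) of each gene in QT7, QT7L1 and QKO. In QKO the values range from 0.09 (Klk13) to 3.15 (Nt5e), and in QT7L1 from 1.39 (Klk13) to 1.76 (Hal), and the 3 comparisons share the WT libraries.

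The comparisons that chose the genes gave the following sizes, with no test. In QKO over WT the log2 fold changes were 3.15 ± 0.29 (SE) for Nt5e, 2.97 ± 0.32 for Hal, 2.96 ± 0.26 for Lrrn2 and 2.69 ± 0.45 for Ptgs1, but 0.50 ± 0.26 for Slc15a1 and 0.09 ± 0.24 for Klk13. In QT7L1 over WT they lay closer together, at 1.66 ± 0.28 for Nt5e, 1.76 ± 0.31 for Hal, 1.56 ± 0.26 for Lrrn2, 1.48 ± 0.45 for Ptgs1, 1.51 ± 0.26 for Slc15a1 and 1.39 ± 0.23 for Klk13. QT7L1 cells thus had 2.62 to 3.39 times the WT level of each gene. Both QT7L1 libraries lay above both WT libraries for all 6 genes, as for 25.4% of the genes tested, a count that the choice of genes fixes in part. In QT7L1 over QKO, Nt5e was at -1.50 ± 0.26, Hal at -1.21 ± 0.29, Lrrn2 at -1.40 ± 0.25 and Ptgs1 at -1.21 ± 0.42 on the log2 scale, and Slc15a1 at 1.00 ± 0.26 and Klk13 at 1.31 ± 0.23. The first 4 genes were therefore at 0.354 to 0.432 of their QKO level in QT7L1.

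QT7 against QKO compares the line named for TCF7 with cells without the factors, and it shares QKO libraries with the choice of genes. The lines are separate clones, so an effect of the factor cannot be told apart from a difference between lines. Klk13 rose, at 6.53 ± 0.719 CPM in QT7 and 2.66 ± 0.274 CPM in QKO (SD, n = 2 each), a log2 fold change of 1.30 ± 0.23 (SE, adjusted p = 0.00376). It was the only one of the 6 called, or 1 of 6, where 26.9% of all genes were called and 14.8% were called higher. The other 5 did not pass, with Nt5e at -0.61 ± 0.26 (adjusted p = 0.109), Hal at -0.72 ± 0.28 (0.0848), Lrrn2 at -0.19 ± 0.24 (0.579), Ptgs1 at -0.05 ± 0.41 (0.944) and Slc15a1 at 0.71 ± 0.26 (0.0706). Klk13 kept its call in each alternative fit (adjusted p of 0.0461 or less). At an unadjusted p under 0.05 there were 4 of the 6 genes, beside 39.9% of all genes. DESeq2 called 4 of 6, adding lower Nt5e (adjusted p = 0.0299) and Hal (0.0419) and higher Slc15a1 (0.0223). In the authors' deposited table, which runs as QKO over QT7, Nt5e was at 0.56 (adjusted p = 0.0436), Hal at 0.62 (0.0572), Slc15a1 at -0.60 (0.0341) and Klk13 at -1.06 (0.000164).

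QT7 against QT7L1 sets the rescued lines beside each other. None of the 6 genes passed with edgeR, which called 1 of all 16515 genes (0.00606%), the predicted gene Gm47283, named after its values were seen. At an unadjusted p under 0.05 there were 3 of the 6 genes, and 11.1% of all genes. Lrrn2 was at 1.20 ± 0.24 on the log2 scale (adjusted p = 0.156), with 17.3 ± 4.78 CPM in QT7 and 7.52 ± 1.21 CPM in QT7L1. Nt5e was at 0.89 ± 0.26 (0.284), with 28.2 ± 1.52 CPM in QT7 and 15.2 ± 5.15 CPM in QT7L1, and Ptgs1 at 1.16 ± 0.42 (0.396). Both QT7 libraries were above both QT7L1 libraries for these 3 genes and for Hal (0.49 ± 0.29, adjusted p = 0.544), as they were for 20.7% of all genes. Slc15a1 was at -0.30 ± 0.26 (0.690) and Klk13 at -0.01 ± 0.22 (0.992). DESeq2 called 2 of 6, Nt5e (adjusted p = 0.0222) and Lrrn2 (0.000552), and the authors' deposited table also had these 2 under the threshold (0.0288 and 0.000611). Without QT7 replicate 2 edgeR called Lrrn2 (adjusted p = 0.00408) and Ptgs1 (0.0144).

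Genes that work beside the 6 were taken from 6 lists, with 77 genes tested. In QT7 against WT, 2 of them rose, 4 fell and 71 did not pass, with a median log2 fold change of -0.06, so that 7.79% were called beside 4.62% of all genes. In QKO against WT, 10 rose, 15 fell and 52 did not pass, with a median of 0.05, beside a background of 26.4% of all genes called, 11.7% higher and 14.7% lower. The share called was 32.5% in the lists for QKO against WT, near that of all genes. The counts moved with single libraries, for QKO against WT to 5 higher without WT replicate 1 or QKO replicate 1, to 6 higher and 6 lower without WT replicate 2, to 6 lower without QKO replicate 1 and to 6 higher and 4 lower without QKO replicate 2. For QT7 against WT they moved to 0 higher and 1 lower without WT replicate 1, to 6 higher and 9 lower without QT7 replicate 2, to 2 lower without WT replicate 2 or QT7 replicate 1, and to 1 lower without either QT7L1 library.

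Beside Nt5e, 24 genes of extracellular nucleotide and adenosine handling were tested. In QT7 against WT 1 rose, 3 fell and 20 did not pass, and in QKO against WT 4 rose, 3 fell and 17 did not pass. Alpl, the tissue-nonspecific alkaline phosphatase, which also dephosphorylates extracellular AMP, was at 210 and 209 CPM in QT7, 209 and 181 CPM in QT7L1, 258 and 234 CPM in QKO and 123 and 136 CPM in WT. It rose by 0.69 ± 0.10 (log2, SE) in QT7 over WT (adjusted p = 0.00904), by 0.59 ± 0.10 in QT7L1 over WT (0.0355) and by 0.92 ± 0.10 in QKO over WT (0.000771). Adk, the kinase that turns adenosine back into AMP inside the cell, was at 47.5 and 46.6 CPM in QT7, 65.6 and 55.0 CPM in QT7L1, 63.7 and 61.9 CPM in QKO and 105 and 88.6 CPM in WT. It fell in the same 3 comparisons, by 1.04 (SE 0.12, adjusted p = 0.00325), 0.68 (0.12, 0.0355) and 0.62 (0.12, 0.00561). All 6 QT7, QT7L1 and QKO libraries lay above WT for Alpl and below WT for Adk, and 0.745% of all genes were called in QT7L1 against WT. That QT7L1 call ended for Alpl in 6 of the 8 fits that left out a library (adjusted p = 0.0569 to 0.295) and for Adk in 5 of them (0.0629 to 0.281): those fits lacked WT replicate 1 or 1 QKO or QT7L1 library, and for Alpl also WT replicate 2. The QT7 call of Alpl ended without WT replicate 1 (0.0959), and the QKO call of Adk without QKO replicate 2 (0.0533). The nucleoside transporter Slc29a3 and the cytosolic nucleotidase Nt5c3b rose in QKO, at 0.95 ± 0.12 (0.00116) and 0.69 ± 0.13 (0.00530) over WT, and were at 0.36 ± 0.12 (0.121) and 0.08 ± 0.13 (0.796) in QT7 over WT. Entpd2 of the same list fell in QKO, at -2.86 ± 0.55 over WT (edgeR adjusted p = 0.00561). It was at 0.186 and 0.166 CPM in QKO and 0.876 and 1.70 CPM in WT. With a library left out its log2 fold change ranged from -3.25 to -2.29, and the call did not hold in every such fit. Enpp2 and Nt5c2 fell in QT7, at -4.34 ± 0.96 (0.0436) and -0.57 ± 0.13 (0.0392) over WT. The calls of Enpp2 and Nt5c2 did not hold together in any fit that left out a library. The WT libraries of Enpp2 differed, at 3.98 and 0.635 CPM.

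Beside Ptgs1, 19 genes of prostanoid synthesis, transport, breakdown and reception were tested. In QT7 against WT 1 rose and 18 did not pass, and in QKO against WT 2 rose, 4 fell and 13 did not pass. Ptges, the prostaglandin E synthase that acts after the cyclooxygenases, was at 18.5 and 22.8 CPM in QT7, 20.5 and 18.7 CPM in QT7L1, 16.3 and 15.8 CPM in QKO and 6.35 and 10.5 CPM in WT. It rose by 1.28 ± 0.22 in QT7 over WT (adjusted p = 0.0147), by 1.21 ± 0.22 in QT7L1 over WT (0.0402) and by 0.92 ± 0.22 in QKO over WT (0.0143). WT replicate 1 was the lowest library, and without it none of the 3 calls held (0.0947, 0.229 and 0.0683). The QKO call also ended without QKO replicate 1 (0.0703) or 2 (0.0757), the QT7L1 call without any 1 of the QKO or QT7L1 libraries (0.0750 to 0.295), and the QT7 call when only the QT7 and WT libraries were fitted (0.0842). Ptgs2, the inducible cyclooxygenase, was at 0.893 and 0.782 CPM in QT7, 0.242 and 0.396 CPM in QT7L1, 12.0 and 3.52 CPM in QKO and 3.13 and 0.884 CPM in WT. Its QKO libraries were the highest but differed from each other, and it was at 1.97 ± 0.68 in QKO over WT (adjusted p = 0.0679), ranging from 0.82 without QKO replicate 1 to 3.13 without WT replicate 1. That value passed by DESeq2 (0.00308), without the filter (2.02e-08), with the replicate block (0.0191), without WT replicate 1 (0.0292) and without QKO replicate 2 (0.0382). In QT7 over WT Ptgs2 was at -1.23 ± 0.73 (0.406). Among the 4 list genes that fell in QKO over WT were Abcc4, at -0.66 ± 0.13 (edgeR adjusted p = 0.00591), and Hpgd, at -1.91 ± 0.51 (0.0210). Akr1b3 was the other gene that rose there, at 0.39 ± 0.10 (0.0205). With a library left out Abcc4 ranged from -0.85 to -0.44 and Akr1b3 from 0.34 to 0.42 in QKO over WT. Neither call held in every such fit.

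Beside Hal, 8 genes of histidine breakdown and use were tested and none passed in QT7 against WT or QKO against WT by edgeR, with 3 and 2 at an unadjusted p under 0.05 and with 1 higher and 0 called by DESeq2. Those that follow Hal in the pathway were scarcely counted, and Uroc1 and Ftcd, which were not tested, are named for that place: the urocanate hydratase Uroc1 was at 0 to 0.0303 CPM, the formiminotransferase Ftcd at 0 to 0.102 CPM and the imidazolonepropionase Amdhd1 at 0.0939 to 0.689 CPM. Beside Lrrn2, 14 leucine-rich repeat membrane proteins were tested, of which 6 fell, 1 rose and 7 did not pass in QKO against WT, and 1 fell and 13 did not pass in QT7 against WT. Its paralogue Lrrn1 was at 0.893 and 0.598 CPM in QT7, 0.545 and 0.853 CPM in QT7L1, 0.186 and 0.0277 CPM in QKO and 1.19 and 1.16 CPM in WT, and fell by 3.46 (SE 0.62, adjusted p = 0.00417) in QKO over WT. Lrrn4cl fell by 1.95 (SE 0.34, adjusted p = 0.00393) in QKO over WT. Flrt2, the list gene that rose there, was at 1.62 ± 0.45 (edgeR adjusted p = 0.0281). Its QKO libraries differed, at 10.2 and 3.30 CPM, beside 2.00 and 2.36 CPM in WT.

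Beside Slc15a1, 6 peptide transporters and brush-border proteins were tested, of which 1 rose, 2 fell and 3 did not pass in QKO against WT, and none passed in QT7 against WT by edgeR or DESeq2, with 2 at an unadjusted p under 0.05. Slc15a2, the transporter of the same family known from kidney, was at 10.5 and 4.19 CPM in QT7, 9.87 and 6.88 CPM in QT7L1, 2.11 and 1.69 CPM in QKO and 8.95 and 5.60 CPM in WT. It fell by 1.93 in QKO over WT (SE 0.45, adjusted p = 0.0148) and was at 0.02 ± 0.41 in QT7 over WT (0.989), and the QKO call ended without WT replicate 1 (0.0697), QKO replicate 1 (0.0700) or QKO replicate 2 (0.119). Pdzk1, a scaffold for transporters, fell by 2.13 (SE 0.37, adjusted p = 0.00384) in QKO over WT. The gene that rose there was Dpp4, at 1.59 ± 0.48 (edgeR adjusted p = 0.0441). Dpp4 was at 18.0 and 14.2 CPM in QKO and 4.54 and 6.12 CPM in WT. With a library left out its log2 fold change ranged from 1.39 to 1.83, and the call did not hold in every such fit. Of 6 tested kallikreins and inhibitors beside Klk13, 2 rose and 4 did not pass in QKO against WT, and none passed in QT7 against WT by edgeR or DESeq2, with 3 at an unadjusted p under 0.05. Klk10 was at 5.67 and 3.06 CPM in QT7, 2.18 and 1.13 CPM in QT7L1, 9.87 and 8.87 CPM in QKO and 2.38 and 2.11 CPM in WT, and rose by 2.06 ± 0.36 in QKO over WT (adjusted p = 0.00382). Klk11 rose by 1.39 ± 0.37 in QKO over WT (0.0207), a call that ended without WT replicate 1 (0.0676), WT replicate 2 (0.131) or QKO replicate 2 (0.142). Klk13, in the same gene cluster, was at 0.09 ± 0.24 in that comparison.

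**Figure D3:**
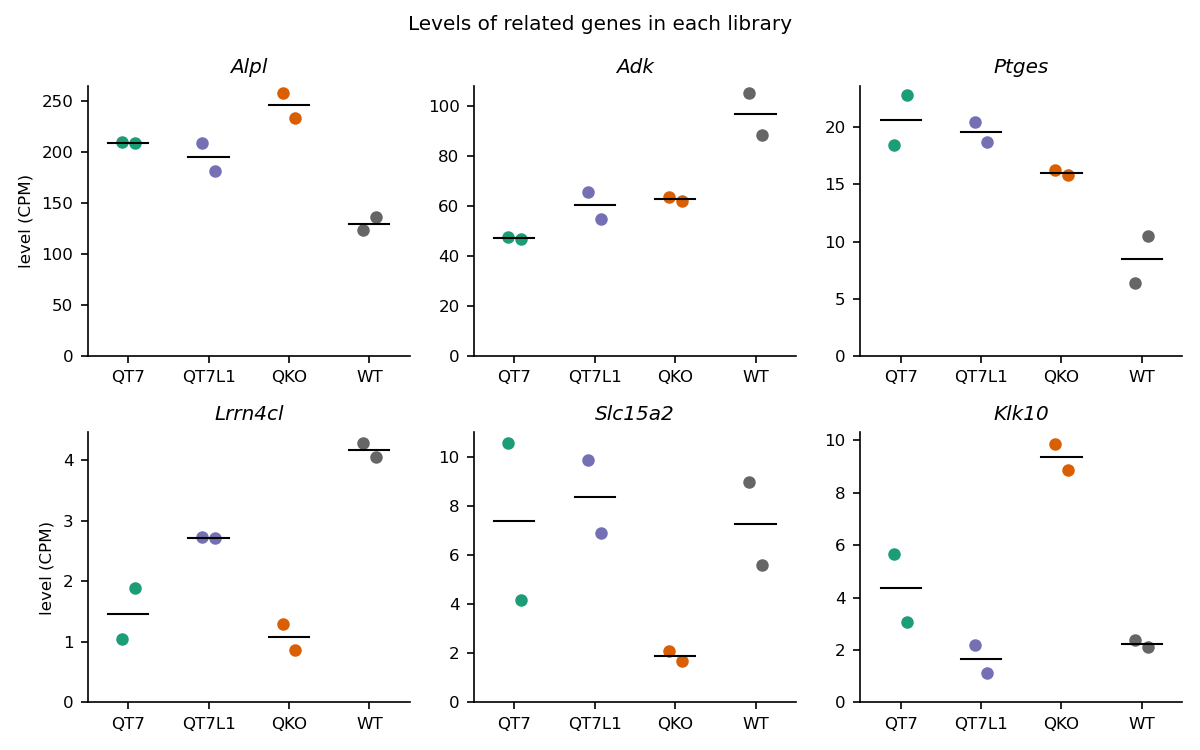
Level in CPM (vertical axes, from 0) of 6 related genes in the 2 libraries of QT7, QT7L1, QKO and WT, with the mean as a line. Alpl and Ptges lay above both WT libraries in the other 6 and Adk below them, Slc15a2 and Lrrn4cl averaged least in QKO, and Klk10 was highest in QKO (9.87 and 8.87 CPM).

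The nearest tested genes on either side of the 6 gave 12 flanking genes. None of the 12 was called in QT7 against WT by edgeR or DESeq2, with 6 at an unadjusted p under 0.05 and a median log2 fold change of 0.28. Over all genes tested, edgeR called 4.62%, 20.2% had an unadjusted p under 0.05 and the median was 0.01. Snx14, which lies 4657 bases beyond Nt5e, was at 0.29 ± 0.13 (log2, SE, adjusted p = 0.243), and Lta4h, 3892 bases before Hal, at 0.28 ± 0.09 (0.0955). Amdhd1, 4033 bases beyond Hal, was at 1.82 ± 0.66 (0.148), and Gm13431, 7491 bases before Ptgs1, at 2.07 ± 0.70 (0.122). Each of these last 2 stayed at or below 1.05 CPM in every library, so their fold changes rest on few counts. Mdm4 beyond Lrrn2 was at 0.24 ± 0.19 (0.546), Dock9 above Slc15a1 at 0.31 ± 0.13 (0.223) and Klk11 beyond Klk13 at 1.00 ± 0.37 (0.150).

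**Figure D4:**
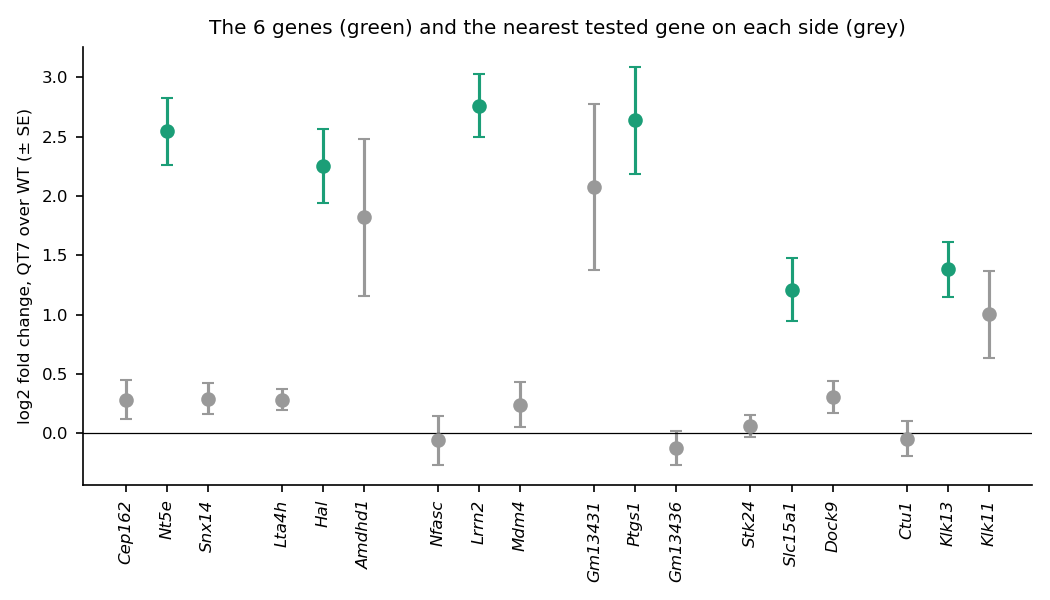
Log2 fold change of QT7 over WT (vertical axis, with bars of 1 SE) for each of the 6 genes in green and the nearest tested gene on either side in grey, in chromosome order. The 6 genes lie between 1.21 and 2.76, and 9 of the 12 flanking genes between -0.12 and 0.31, while Amdhd1, Gm13431 and Klk11 lie at 1.82, 2.07 and 1.00.

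Over the 8 libraries, log2 CPM of the first 4 genes went together, with Pearson correlations from 0.89 (Hal and Ptgs1) to 0.98 (Nt5e and Lrrn2). Slc15a1 and Klk13 had a correlation of 0.89 with each other and of 0.25 to 0.54 with the first 4. The libraries are shared and the genes were chosen for their pattern, so these values are a description. Among 10203 other genes, those with the most similar pattern to Nt5e were Arf3 (r = 0.98), Nanog (0.98) and Fitm2 (0.97), those most similar to Lrrn2 were Nanog (0.99), Trim16 (0.99) and Nfatc2ip (0.99), and those most similar to Ptgs1 were Atp8b2 (0.99), Prdm14 (0.98) and Morc1 (0.98). Nanog, a core pluripotency factor, averaged 544 CPM in QT7, 443 CPM in QT7L1, 595 CPM in QKO and 298 CPM in WT. The order of its group means was that of Nt5e, Hal, Lrrn2 and Ptgs1, over a smaller range. Most similar to Hal were Alpl (0.99), Lig1 (0.97) and Akap1 (0.97), to Slc15a1 Sema6c (0.98), Tmem231 (0.97) and Tbrg1 (0.97), and to Klk13 Add1 (0.99), Ift52 (0.99) and Csad (0.98). Csad averaged 53.3 CPM in QT7, 51.4 CPM in QT7L1, 34.8 CPM in QKO and 34.1 CPM in WT, which is the split of the groups seen for Klk13.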

How the data were processed

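Counts of 8 RNA sequencing libraries were used. Per the labels, each library was made with a stranded TruSeq kit from 250 ng of RNA. Per the submitters' processing notes, the authors used bcl2fastq 1.8.4, STAR 2.4.0f1, the mm10 (GRCm38) build, HTSeq and DESeq2 (listed as 2.1.8.3), and the strand setting of HTSeq is not stated. The deposited files hold whole-number counts per gene. The authors' deposited tables hold a mean signal, log2 fold changes, a score and p-values, and each fold is the first named group over the second, per the file headers, with 98.2 to 99.7% of genes in the same direction here.

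The model was fitted in edgeR 4.0.16 (R 4.3.3) on 16515 genes kept by filterByExpr, with TMM scaling, all 8 libraries in 1 robust quasi-likelihood model (4 residual degrees of freedom), 2-sided tests and Benjamini-Hochberg adjustment within a comparison, and genes under 0.05 were called. The 6 genes had 31 or more counts in every library. SE is the absolute log2 fold change over the square root of F. Correlations used log2 CPM with a prior count of 2. Positions and exon lengths came from GENCODE M21, which held 47224 of 47729 identifiers. The fit was tested on simulated data. P-values measure the spread between clones or cultures. The 6 genes, the lists and the rules were chosen with earlier results of these data known. Related genes named were among the 4 smallest adjusted p per list and comparison, flanking genes were the nearest tested, and similar genes were the 3 with the highest correlation at a mean log2 CPM of 2 or more. Alternatives were DESeq2 1.42.0, its size factors, no filter, only the compared groups, a replicate block and each library left out. Where 1 library was left out, the lone library of its group was assumed to vary like the other groups.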

Additional observations from a re-analysis of the deposited data

Results flagged for a closer look

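The response of Klk13 over WT differed between QT7 and QKO cells: the log2 fold change was 1.38 ± 0.23 in QT7 and 0.09 ± 0.24 in QKO (SE, 2 libraries a group), and the difference between them was 1.30 ± 0.23 (edgeR quasi-likelihood test, adjusted p = 0.00376). Both comparisons use the same WT libraries, and the QKO libraries entered the choice of the gene. Klk13 was at 7.04 and 6.03 CPM in QT7, against 2.85 and 2.47 CPM in QKO.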

How the results depend on the processing

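With 2 libraries a group, counts of called genes moved with the processing more than fold changes did. In QT7 against WT, where edgeR called 763 genes, DESeq2 called 1287, no filter on low counts gave 2203 and the 2 groups alone gave 117, with 3 of the 6 genes called in that last fit. In QT7 against QKO, DESeq2 and no filter called 4 of the 6 genes, the 2 groups alone 3 and the replicate block 2. In QT7 against QT7L1, DESeq2 called 235 genes, no filter 1030, the 2 groups alone 20 and the replicate block 2, and of the 6 genes DESeq2 called 2 and no filter 3. In QT7L1 against WT these fits called 575 (DESeq2), 1248 (no filter) and 614 (2 groups alone). Without the filter, related genes called in QT7 against WT were 10 higher and 8 lower, and 1 flanking gene was called. With each library left out in turn, all genes called ranged from 52 to 2023 in QT7 against WT, 1432 to 4355 in QT7 against QKO, 0 to 1564 in QT7 against QT7L1, 1272 to 5497 in QKO against WT, 0 to 517 in QT7L1 against WT and 1704 to 5971 in QT7L1 against QKO. Of the 6 genes, 2 to 5 were called in QT7 against WT, 1 to 3 in QT7 against QKO and 0 to 2 in QT7 against QT7L1. Related genes ranged from 0 to 6 higher and 1 to 9 lower in QT7 against WT and from 5 to 11 higher and 4 to 15 lower in QKO against WT, and flanking genes from 0 to 2. Signs turned for some values that did not pass. In QT7 against QKO, Lrrn2 ranged from -0.50 to 0.066 on the log2 scale with a library left out (0.02 without QKO replicate 1) and Ptgs1 from -0.78 to 0.44 (0.08 without QKO replicate 2). In QT7 against QT7L1, Klk13 ranged from -0.12 to 0.10 (0.03 without QT7L1 replicate 2). The peptidase gene Dpp4 was at -0.96 in QT7 against QKO without QT7 replicate 1 (adjusted p = 0.0282) and at 0.63 without QT7 replicate 2. In QKO over WT, where it is described without a test, Klk13 ranged from -0.05 to 0.24. The cause of these changes was not tested. Libraries share only a replicate number across groups, with correlations of their deviations from -0.21 to 0.16, so the replicate block is not a pairing. Choosing between the scalings of edgeR and DESeq2 left the median of all genes within 0.05 of 0.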
